A study of Mus musculus with 6 samples.

Results

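The immunoglobulin heavy chain gene of a B cell is assembled from separate variable (V), diversity (D) and joining (J) segments. The data described here are the RNA levels of 6 such segments in mouse pro-B cells, the bone marrow stage at which heavy chain assembly takes place. They are the D segments Ighd1-1 (also called DFL16.1) and Ighd4-1 (DQ52) and the J segments Ighj1, Ighj2, Ighj3 and Ighj4. They were chosen by gene symbol from 54752 gene identifiers in the deposited tables, and all 6 were found and passed the filter on low values. FPKM, the authors' unit, is a read level per length of transcript, scaled to the total of the library.

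The Skiv2l-deleted animals were 3 adult C57BL/6 mice with floxed Skiv2l alleles and a Cd79a-Cre driver. The 3 control mice carried floxed Skiv2l alleles as well, and their labels name no Cre. Pro-B cells were sorted by flow cytometry from the bone marrow of each mouse and gave 1 library per mouse, so n = 3 in each group. Cd79a is active only in the B lineage, so the driver limits deletion to these cells, and every difference below goes with the driver as well as with Skiv2l. The product of Skiv2l is the RNA helicase that feeds cytosolic messenger RNA to the exosome as part of the SKI complex, and the comparison asks how the loss of Skiv2l alters the pro-B transcriptome.

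Recombination runs in a fixed order. The RAG recombinase first joins a D to a J segment, deleting the DNA between them, and then joins a V segment to the DJ unit. Each segment is flanked by a recombination signal, a heptamer and a nonamer separated by a spacer, and these signals are lost from the joined DNA. A J segment is carried in every heavy chain message, since the rearranged exon is spliced from the end of J to the Ighm constant exons. Unrearranged alleles are also transcribed, giving sterile transcripts that start near Ighd4-1 or in the intron after the J segments. In these tables an FPKM on a D or J segment cannot be assigned to rearranged or to sterile RNA.

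The sequences below show what each value was measured on. They are the mouse GENCODE release M21 transcripts on GRCm38, all on the minus strand of chromosome 12 and written 5′ to 3′. Capitals in the J segments mark TGGGGNNNNGG, the stretch that encodes the tryptophan and glycines shared by J segments.
Ighd1-1 (chr12:113482170-113482192): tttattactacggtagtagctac
Ighd4-1 (chr12:113430528-113430538): ctaactgggac
Ighj1 (chr12:113429781-113429833): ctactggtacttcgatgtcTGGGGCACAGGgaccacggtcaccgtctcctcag
Ighj2, transcript Ighj2-202 (chr12:113429468-113429515): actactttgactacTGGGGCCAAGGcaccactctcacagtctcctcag
Ighj3 (chr12:113429085-113429132): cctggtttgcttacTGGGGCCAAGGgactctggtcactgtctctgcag
Ighj4 (chr12:113428514-113428567): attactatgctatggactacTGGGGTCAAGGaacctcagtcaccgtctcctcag
Upstream of Ighj2, transcript Ighj2-201 (chr12:113429514-113429567): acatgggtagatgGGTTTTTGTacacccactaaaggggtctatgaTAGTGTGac

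All 4 heavy chain J segments held TGGGGNNNNGG, which 1.71% of the first 54 bases of 141647 GENCODE transcripts held on either strand. From that stretch to the 3′ end the J segments run for 34 bases, of which 25 to 28 were identical between any pair. How well reads were separated between the J segments was not examined. The last line is a second transcript annotated under Ighj2, which overlaps the segment by its last bases only. Its capitals mark GGTTTTTGT, a nonamer of the recombination signal, and TAGTGTG, which stands 23 bases later and directly before the segment, where the heptamer of the signal lies. Of the same 54-base windows, 0.0367% held the nonamer and 0.363% held TAGTGTG on either strand.

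Ighd1-1 lies 52.4 kb upstream of Ighj1, and Ighd4-1 lies 0.7 kb upstream of it. Ighd1-1 is conventionally the start of the D array, but the annotation places Ighd3-1 and Ighd5-1 farther out, 95.5 and 97.0 kb upstream of Ighj1, and both were listed at 0 in all 6 libraries. The segments are 11 to 54 bases long, and Ighj2 with both its transcripts covers 100. Depth per base differed widely between them. Mean coverage was 116.5 to 297.6 reads per base on the J segments in Skiv2l-deleted libraries and 252.7 to 706.4 in controls. The lower ends are those of Ighj2, averaged over the 100 bases of both its transcripts. On Ighd1-1 mean coverage was 26.7 to 54.9 in Skiv2l-deleted libraries and 11.1 to 17.9 in controls. On Ighd4-1 it was 4.18, 5.09 and 8.55 in Skiv2l-deleted libraries and 0.818, 2.0 and 5.36 in controls, so the values of Ighd4-1 rest on a few reads.

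Each library held 1.74 to 2.40 Gb of aligned sequence, as computed from FPKM and coverage. Skiv2l stood at 9.53, 16.1 and 10.9 FPKM in Skiv2l-deleted libraries and at 25.4, 20.2 and 46.3 FPKM in controls, without overlap and without passing the threshold (limma adjusted p = 0.063). This value covers the whole gene, and the labels do not say which exons are floxed. The 12 pro-B markers summed to 4389.4 to 5461.7 FPKM in Skiv2l-deleted libraries and 2969.0 to 4083.7 FPKM in controls. Myeloid markers (7 genes, 7 tested, 0 called) summed to 323.5, 2244.1 and 82.7 FPKM in Skiv2l-deleted libraries and 129.6, 404.0 and 1264.2 FPKM in controls. Skiv2l-deleted 2 and control 3 therefore stood apart, and results are also given without these 2 libraries. Of 13539 genes tested, 8.84% were called at a limma adjusted p below 0.05, 4.97% higher and 3.87% lower in Skiv2l-deleted libraries.

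All 4 J segments fell in Skiv2l-deleted cells, to between 0.386 and 0.475 of the control mean. In none of them did the groups overlap, against 32.2% of tested genes without overlap in either direction and 12.3% that were lower without overlap. The J segments were among the 4.27% of tested genes with the highest mean level, per length, in these libraries. In bulk RNA, fewer cells that carry a transcript and less of it per cell cannot be told apart.

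Ighj1, the J segment nearest the D array, stood at 83.2, 81.6 and 101.7 FPKM in Skiv2l-deleted libraries and at 242.9, 255.5 and 176.9 FPKM in controls. The highest Skiv2l-deleted library lay well below the lowest control, which was control 3. It averaged 88.8 ± 11.2 FPKM in Skiv2l-deleted libraries and 225.1 ± 42.2 FPKM in controls (SD, n = 3 each). The log2 fold change was −1.32 ± 0.17 (SE, limma adjusted p = 0.00923), and of the 17 alternatives run only the one without Skiv2l-deleted 1 lost the call (limma adjusted p = 0.0507).

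Ighj2 was the most uniform of the members. It stood at 128.9, 129.9 and 132.4 FPKM in Skiv2l-deleted libraries and at 371.7, 341.0 and 300.7 FPKM in controls. The Skiv2l-deleted values lay within a few FPKM of each other. The log2 fold change was −1.36 ± 0.11 (SE, limma adjusted p = 0.00365), the lowest p of the 6 members, and the call was kept under each of the 17 alternatives run (highest limma adjusted p = 0.0294).

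Ighj3 stood at 98.8, 85.1 and 96.8 FPKM in Skiv2l-deleted libraries and at 239.5, 198.4 and 153.4 FPKM in controls. The controls were spread widely, with control 3 again the lowest, and no Skiv2l-deleted library reached it. The log2 fold change was −1.05 ± 0.17 (SE, limma adjusted p = 0.0162). The call was lost without control 2 (limma adjusted p = 0.0579), Skiv2l-deleted 1 (0.0684) or Skiv2l-deleted 3 (0.071), and without the filter on low values (0.06).

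Ighj4, the J segment nearest the constant exons, stood at 130.2, 107.9 and 124.1 FPKM in Skiv2l-deleted libraries and at 359.6, 311.3 and 203.6 FPKM in controls. The groups were again apart, with the widest spread among controls. The log2 fold change was −1.23 ± 0.21 (SE, limma adjusted p = 0.0193), and it no longer passed when any library other than control 3 was left out (limma adjusted p = 0.0536 to 0.0773), or without the filter (0.0727). Without control 3 and Skiv2l-deleted 2, all 4 J segments were called (highest limma adjusted p = 0.011).

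**Figure D1:**
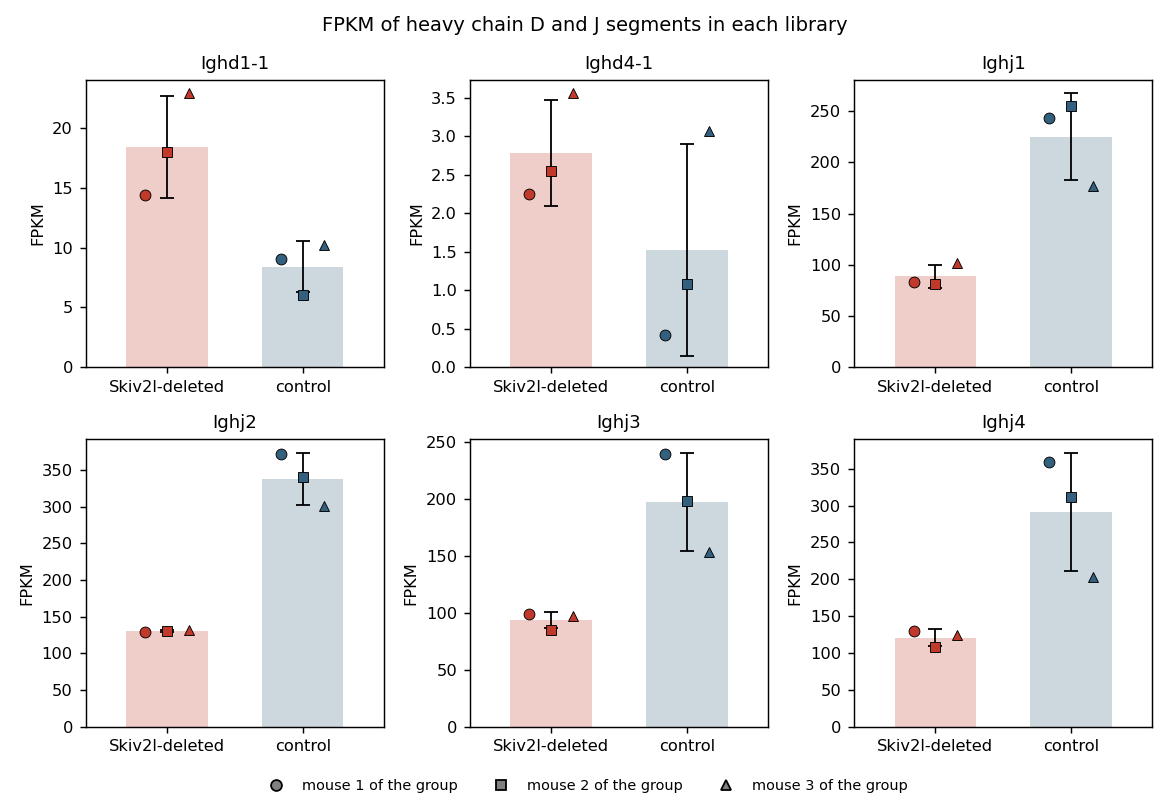
FPKM of each segment in each library (points), with the mean of each group (bar) and its SD (line), n = 3 mice per group. The J segments are lower in Skiv2l-deleted libraries without overlap, Ighd1-1 is higher at 14.4 to 22.9 FPKM against 6.00 to 10.2 FPKM in controls, and the Ighd4-1 groups overlap.

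The shares of Ighj1, Ighj2 and Ighj4 in summed J RNA overlapped between the groups. With Ighj2-202 alone taken for Ighj2, as described below, Ighj4 made up 28.8% ± 1.49 of summed J FPKM in Skiv2l-deleted libraries and 27.7% ± 2.77 in controls (SD, n = 3 each). Ighj2 made up 27.7% ± 1.84 in Skiv2l-deleted libraries and 31.7% ± 3.15 in controls (SD, n = 3 each). Ighj1 made up 21.2% ± 1.89 in Skiv2l-deleted libraries and 21.7% ± 1.52 in controls (SD, n = 3 each). The share of Ighj3 was 23.1%, 21.8% and 22.1% in Skiv2l-deleted libraries and 20.0%, 18.1% and 18.6% in controls, higher without overlap (exact two-sided permutation p = 0.1, the smallest that 3 against 3 values allow). By mean FPKM, a level per length, and again with Ighj2-202 for Ighj2, the order was Ighj4, Ighj2, Ighj3 and Ighj1 in Skiv2l-deleted libraries and Ighj2, Ighj4, Ighj1 and Ighj3 in controls. In each group neighbours in that order had overlapping ranges, apart from Ighj2 and Ighj3 in Skiv2l-deleted libraries.

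**Figure D2:**
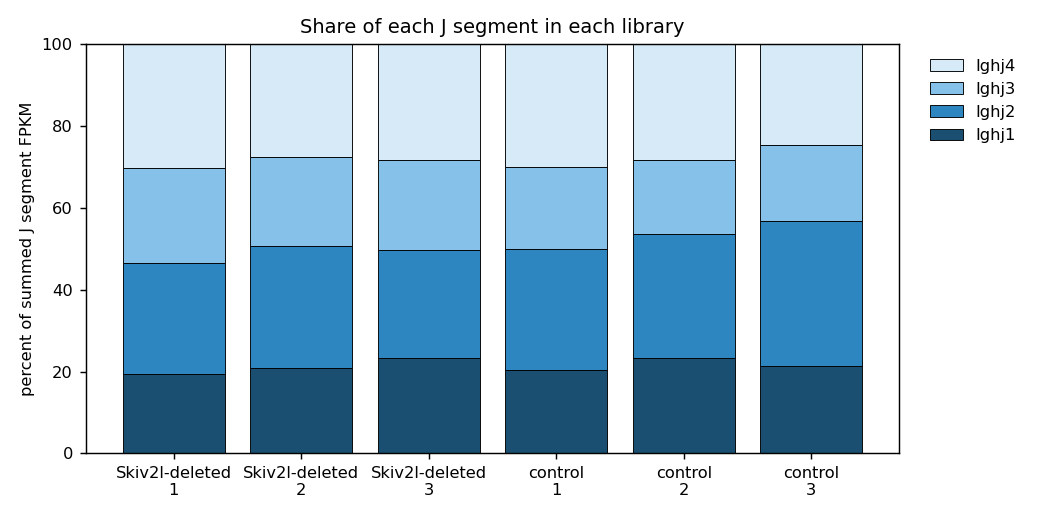
Share of each J segment in the summed J segment FPKM of each library, in percent, with Ighj2 represented by its transcript Ighj2-202. The Ighj3 share is 21.8% to 23.1% in Skiv2l-deleted libraries against 18.1% to 20.0% in controls.

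Summed over the 4 segments, J RNA stood at 441.1, 404.5 and 455.0 FPKM in Skiv2l-deleted libraries and at 1213.8, 1106.2 and 834.7 FPKM in controls. The mean was 433.5 ± 26.1 FPKM in Skiv2l-deleted libraries and 1051.5 ± 195.4 FPKM in controls (SD, n = 3 each), which is 2.43-fold lower (exact permutation p = 0.1). Ighm, the mu constant gene to which J segments are spliced, was also lower, at 2233.7 ± 138.0 FPKM in Skiv2l-deleted libraries and 3401.7 ± 186.6 FPKM in controls (SD, n = 3 each; log2 fold change −0.61 ± 0.12, limma adjusted p = 0.0297). Summed J FPKM was 21.3%, 17.5% and 19.6% of Ighm FPKM in Skiv2l-deleted libraries and 34.3%, 34.7% and 24.0% in controls. The groups did not overlap in this ratio, although control 3 lay close to the Skiv2l-deleted libraries, and the exact permutation p was 0.1. Messages of other constant genes also carry J. Igha stood at 0.129 ± 0.156 FPKM in Skiv2l-deleted libraries and 253.2 ± 112.6 FPKM in controls (SD, n = 3 each). The 8 heavy chain constant genes summed to 2215.0, 2443.4 and 2479.8 FPKM in Skiv2l-deleted libraries and 4175.5, 3741.9 and 4371.8 FPKM in controls. Set against that sum instead, summed J FPKM of control 3 lay among the Skiv2l-deleted libraries, so the groups overlapped. The separation is therefore stated for Ighm alone, and J over that sum was not tested.

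Ighj2 could be divided between its annotated transcripts. Within each library FPKM per unit of coverage was the same in single-transcript genes, and for a gene with several transcripts the deposited FPKM behaved as a sum over transcripts, with coverage spread over their joint length. In 97.5% to 97.9% of genes with several transcripts the values lay within the limits that this reading sets, against 16% to 17.9% with coverage spread over the summed lengths. Solved for Ighj2, the segment itself (Ighj2-202) stood at 115.3, 116.6 and 115.4 FPKM in Skiv2l-deleted libraries and at 354.1, 330.8 and 291.7 FPKM in controls, 2.81-fold lower on average.

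The upstream transcript Ighj2-201, which holds the recombination signal and so lies outside a joined J2, behaved differently. It stood at 13.6, 13.3 and 17.0 FPKM in Skiv2l-deleted libraries and at 17.6, 10.2 and 9.01 FPKM in controls. The groups overlapped (exact permutation p = 0.5). It made up 10.5%, 10.2% and 12.8% of Ighj2 FPKM in Skiv2l-deleted libraries and 4.74%, 2.99% and 3.00% in controls, higher without overlap (exact permutation p = 0.1). This division was chosen after the values were seen and rests on a coverage of 15.7 to 40.8 reads per base on the upstream transcript. Reads from unrearranged alleles and unspliced reads from alleles joined to Ighj1 can both cover it, and cannot be told apart here.

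**Figure D3:**
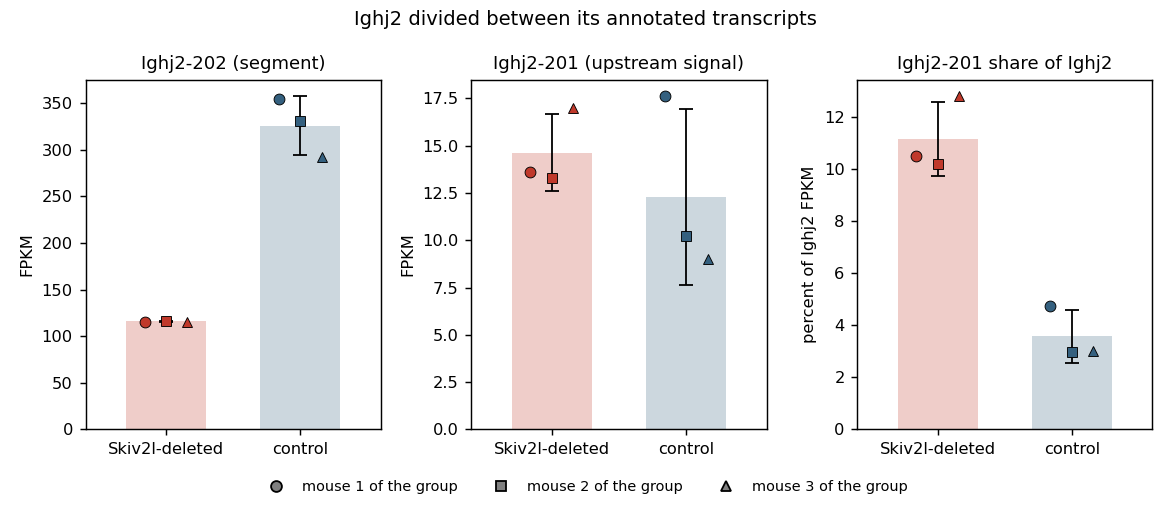
Ighj2 FPKM divided between the segment (Ighj2-202, left) and the upstream transcript with the recombination signal (Ighj2-201, middle), and the upstream share in percent (right). Points are libraries, bars are group means and lines are SD (n = 3); the segment is 115.3 to 116.6 FPKM in Skiv2l-deleted libraries against 291.7 to 354.1 FPKM in controls, while the upstream groups overlap.

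The D segment Ighd1-1 moved the other way. It stood at 14.4, 18.0 and 22.9 FPKM in Skiv2l-deleted libraries and at 9.03, 6.00 and 10.2 FPKM in controls. Each Skiv2l-deleted library lay above each control, which held for 19.9% of tested genes in this direction. It averaged 18.4 ± 4.28 FPKM in Skiv2l-deleted libraries and 8.42 ± 2.19 FPKM in controls (SD, n = 3 each), 2.19-fold higher. The log2 fold change was 1.05 ± 0.23 (SE, limma adjusted p = 0.0375). The aligned bases behind these values were 615, 826 and 1263 in Skiv2l-deleted libraries and 408, 255 and 411 in controls. The call was lost when any library other than control 3 was left out (limma adjusted p = 0.0755 to 0.141). It was also lost without the filter (0.113), with replicate number as a block (0.065), and when Skiv2l-deleted 2 and control 3 were both left out (0.0509). With 1 library left out, the log2 fold change was between 0.85 and 1.20.

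Ighd4-1, the D segment closest to the J segments and a start region of sterile transcripts, did not pass. It stood at 2.25, 2.55 and 3.56 FPKM in Skiv2l-deleted libraries and at 0.417, 1.08 and 3.07 FPKM in controls. Control 3 lay among the Skiv2l-deleted values and the other controls lay below them. The log2 fold change was 0.71 ± 0.38 (SE, limma adjusted p = 0.295). Without control 3 it was 1.13 and passed (limma adjusted p = 0.0345), and without control 1 it was 0.36. The values rest on 46, 56 and 94 aligned bases in Skiv2l-deleted libraries and 9, 22 and 59 in controls.

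A ratio of D to J FPKM within a library does not depend on how libraries are scaled. Ighd1-1 FPKM was 3.26%, 4.45% and 5.03% of summed J FPKM in Skiv2l-deleted libraries and 0.744%, 0.542% and 1.23% in controls. The groups were far apart, 5.07-fold in the means (exact permutation p = 0.1, a ratio chosen after the values were seen). Ighd4-1 FPKM was 0.51%, 0.63% and 0.783% of summed J FPKM in Skiv2l-deleted libraries and 0.0343%, 0.0978% and 0.368% in controls. This ratio did not overlap either (exact permutation p = 0.1), at a log2 ratio of means of 1.94, which was 3.28 without control 3. The exact tests here numbered 18, and their lowest p adjusted by Benjamini-Hochberg was 0.138, so none passes that correction.

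**Figure D4:**
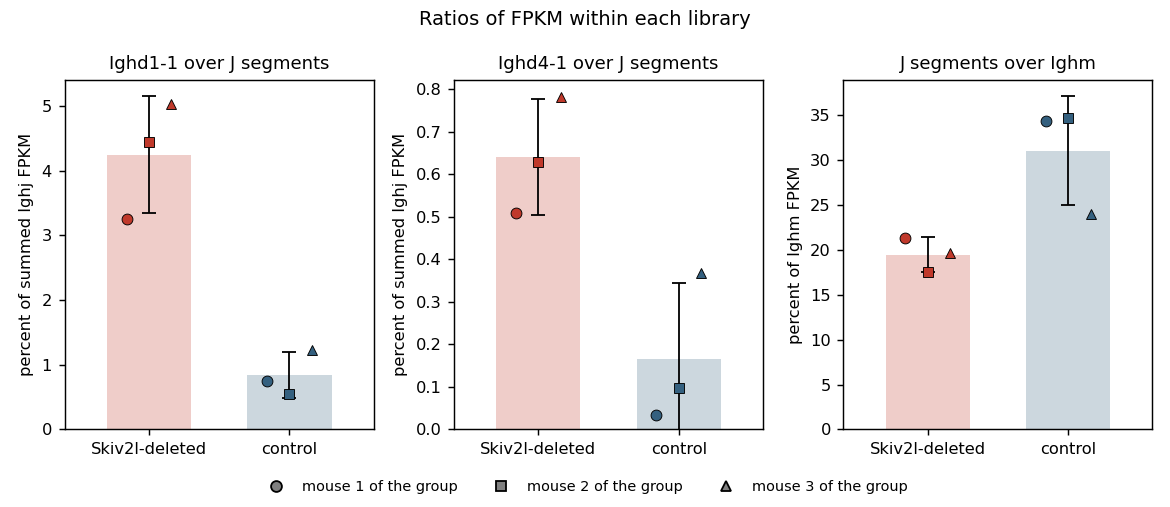
FPKM ratios within each library, in percent: Ighd1-1 over summed J segments, Ighd4-1 over summed J segments, and summed J segments over Ighm. Over all 8 heavy chain constant genes, which are not drawn, the J ratio overlapped between the groups. Points are libraries, bars are group means and lines are SD (n = 3); both D ratios are higher and the J to Ighm ratio is lower in Skiv2l-deleted libraries, none with overlap, and the SD of the Ighd4-1 ratio in controls is drawn down to 0 only.

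The remaining D array gives the setting for the 2 D members. The files held 18 other D segments, of which 4 were listed at 0 in all libraries and 9 passed the filter. Summed over all D segments, members included, FPKM was 38.2, 42.4 and 62.1 in Skiv2l-deleted libraries and 22.4, 19.4 and 24.6 in controls, without overlap (exact permutation p = 0.1). Ighd1-1 made up 39.0% ± 3.02 of that sum in Skiv2l-deleted libraries and 37.6% ± 5.89 in controls (SD, n = 3 each), with overlapping groups.

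The other D segments called higher belonged to the D2 family, whose 6 members are 17 bases long and lie between Ighd1-1 and Ighd4-1. Their sequences show how alike they are, which limits how far reads can be separated between them.
Ighd2-4 (chr12:113470694-113470710): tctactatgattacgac
Ighd2-5 (chr12:113466027-113466043): cctactatagtaactac
Ighd2-8 (chr12:113450851-113450867): tctactatggtaactac

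Ighd2-6 is identical to Ighd2-5, and between the other pairs of the family 12 to 16 of 17 bases were the same. Ighd2-4 stood at 7.91, 6.98 and 10.8 FPKM in Skiv2l-deleted libraries and at 3.44, 2.93 and 1.01 FPKM in controls. Its groups were apart, with control 3 the lowest (log2 fold change 1.53 ± 0.32, limma adjusted p = 0.0319). It missed the threshold in each fit that left out a single library (limma adjusted p = 0.0565 to 0.126), except the fit without control 3 (0.019). Ighd2-4 also missed it with TPM (0.0523), with replicate number as a block (0.0895) and without the filter (0.11). Ighd2-8 stood at 3.67, 1.80 and 3.93 FPKM in Skiv2l-deleted libraries and at 0.449, 0.446 and 0.371 FPKM in controls. Ighd2-5 stood at 2.42, 2.50 and 1.93 FPKM in Skiv2l-deleted libraries and at 0.584, 0.716 and 0.776 FPKM in controls, and Ighd2-6 was nearly the same. Ighd2-5, Ighd2-6 and Ighd2-8 reached the minimum of 1 FPKM only in Skiv2l-deleted libraries, so they passed the filter through the group in which they were high, and their limma calls (adjusted p = 0.0142, 0.0158 and 0.0147) are no support for a rise. In 17 alternatives, the number of other D segments called higher ranged between 0 and 4. It was 0 without control 1, where 7 were tested, and 0 without Skiv2l-deleted 1, 2 or 3, where 6, 6 and 4 were tested and Ighd2-5, Ighd2-6 and Ighd2-8 no longer passed the filter.

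Not every D segment was higher. Ighd2-3 (log2 fold change 0.23) and Ighd2-7 (1.35) did not pass, and the Ighd2-7 values in Skiv2l-deleted libraries were 1.55, 1.74 and 8.54 FPKM. Ighd3-2, the nearest D segment upstream of Ighd4-1, stood at 0, 0.751 and 1.43 FPKM in Skiv2l-deleted libraries and at 1.21, 1.01 and 3.94 FPKM in controls (log2 fold change −0.79 ± 0.44, limma adjusted p = 0.322). Ighd5-2 and Ighd5-3, which are identical to each other, had the same values and a log2 fold change of −0.04. Ighd5-4 has the same sequence as well, but stood at 0.323 FPKM in Skiv2l-deleted 1 and at 0 in the other libraries.

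**Figure D5:**
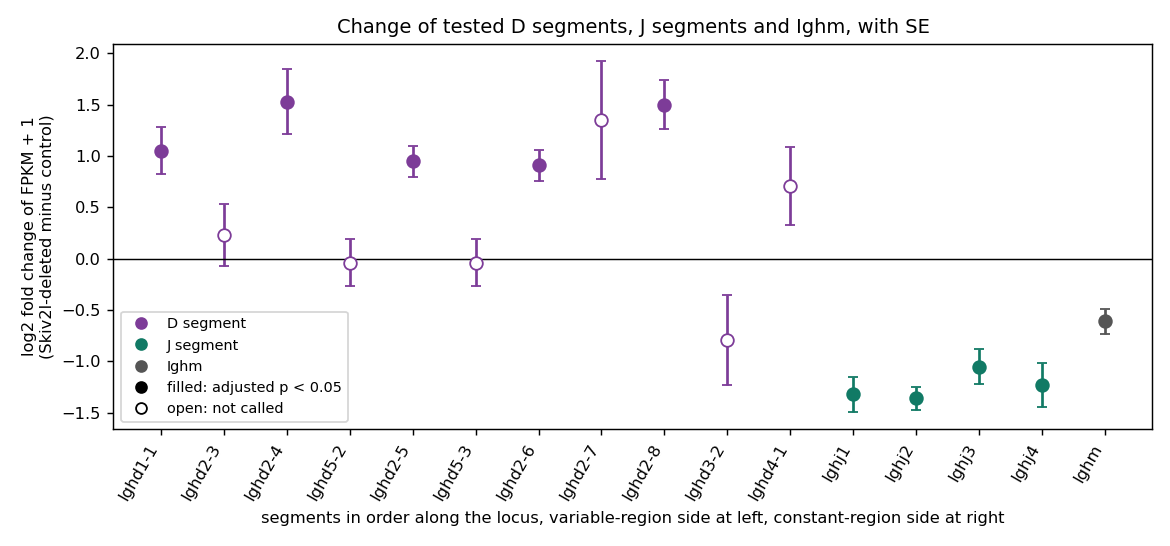
Log2 fold change of FPKM + 1, Skiv2l-deleted minus control, with its SE, for each D and J segment that passed the filter and for Ighm, in order along the locus. Filled points passed at a limma adjusted p below 0.05. Of these, Ighd1-1 and 4 D2 segments lie above 0, the 4 J segments lie between −1.36 and −1.05, and Ighm lies at −0.61. The filled D2 segments other than Ighd2-4 passed the filter only through Skiv2l-deleted libraries, so their calls are no support for a rise. Of those, 2 are identical in sequence. The remaining D segments above 0 did not pass.

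Other parts of the immunoglobulin loci put these values in context. Of 13 tested V segments from the D-proximal end of the heavy chain locus, 8 fell and 0 rose, against 3.87% and 4.97% of all genes tested. The median log2 fold change of these V segments was −1.51, against 0.06 over all genes tested. Examples were Ighv5-17 (−2.53), Ighv5-6 (−2.0), Ighv5-16 (−1.76) and Ighv5-9 (−1.75). The count of 8 was 4 without Skiv2l-deleted 1 or 3, 5 without control 2, 12 without control 3, and 11 of 13 without control 3 and Skiv2l-deleted 2. Of 7 tested heavy chain constant genes, 6 fell and 0 rose, at a median of −3.03, while without control 1 or 2 only 4 were tested, of which 1 and 2 fell, and without control 3 it was 3 of 4. Igha, Ighg1 and Ighg3 passed the filter only through the controls, where they were high. Their calls, and the median, which is the value of Ighg3, are therefore no support for a fall. Of the other constant genes tested, Ighg2c (−3.74), Ighg2b (−1.68) and Ighm (−0.61) were called lower, and Ighd (−0.66) was not called. Among light chain joining and constant genes, 5 of 11 fell and 0 rose, at a median of −1.59. They were the kappa constant gene Igkc (494.6 ± 135.8 FPKM in Skiv2l-deleted libraries and 1882.4 ± 311.1 FPKM in controls, SD, n = 3 each) and the joining segments Igkj1 (−1.69), Igkj2 (−2.37), Igkj4 (−1.59) and Igkj5 (−2.12).

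The factors that act on D and J segments moved in both directions. Of 18 tested genes of V(D)J recombination and end joining, 3 rose and 3 fell, at a median of 0.13. Of all genes tested, 4.97% rose and 3.87% fell. Rag1, the nuclease subunit of the recombinase, stood at 183.6 ± 12.4 FPKM in Skiv2l-deleted libraries and 109.8 ± 25.9 FPKM in controls (SD, n = 3 each; log2 fold change 0.76, limma adjusted p = 0.0489), and its partner Rag2 rose by 0.46. Dntt, whose product adds bases at the D and J junctions, stood at 723.5 ± 144.7 FPKM in Skiv2l-deleted libraries and 258.8 ± 73.0 FPKM in controls (SD, n = 3 each; log2 fold change 1.5, limma adjusted p = 0.0151). Hmgb2, a DNA-bending cofactor of the recombinase, fell by 0.74, and Polm, the gene of an end-joining DNA polymerase, fell by 1.91. The counts for this list were 0 and 0 without Skiv2l-deleted 1 or 3, fits in which only 184 and 179 of all genes tested were called. The list counts were 1 and 2 when Skiv2l-deleted 2 was left out, 0 and 1 when control 1 was, and 1 and 1 when control 2 was. After scaling by median ratios 1 rose and 3 fell. Of 14 genes for locus contraction and chromatin, 0 rose and 2 fell, at a median of −0.21. These were Ezh2, a histone methyltransferase needed for full heavy chain rearrangement (−0.48), and the chromatin reader gene Brwd1 (−1.14). The count of 2 was 0 without Skiv2l-deleted 1 or 3, 1 without control 1, control 2 or Skiv2l-deleted 2, and 5 without control 3. Of 16 tested RNA exosome and SKI complex genes, 0 rose and 1 fell, the exosome cap gene Exosc3 (−0.51, limma adjusted p = 0.0387). A count of 0 fell when any library other than control 3 was left out. The count of 1 is near the 3.87% that fell over all genes tested, and is not read as a result about this list.

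Markers of other cell types and of other B cell stages stood as follows beside these values. For comparison with their counts, 4.97% of all genes tested were called higher and 3.87% lower. Later B cell genes (7 genes, 6 tested, 0 higher and 6 lower) summed to 82.5 to 155.3 FPKM in Skiv2l-deleted libraries and 298.5 to 346.1 FPKM in controls, lower like the J segments. Without control 1 or 2 the count of lower genes was 1 of 5, and it was 2 without Skiv2l-deleted 3 and 3 without control 3 or Skiv2l-deleted 1. Fcer2a, one of the lower genes, passed the filter only through the controls. Plasma cell genes (6 genes, 5 tested, 1 higher and 2 lower) summed to 468.6 to 498.1 FPKM in Skiv2l-deleted libraries and 470.1 to 519.3 FPKM in controls. Among them the antibody joining chain gene Jchain stood at 0.105 ± 0.118 FPKM in Skiv2l-deleted libraries and 52.2 ± 20.3 FPKM in controls (SD, n = 3 each). Jchain passed the filter only through the controls. Sdc1 was also called lower (log2 fold change −1.29). The plasma cell gene called higher was Mzb1 (0.53), at 347.2 ± 14.3 FPKM in Skiv2l-deleted libraries and 241.2 ± 35.5 FPKM in controls (SD, n = 3 each). Of the plasma cell genes, 0 were higher and 0 lower without control 1 or 2 (4 tested), 0 and 1 without Skiv2l-deleted 1 or 3, and 0 and 2 without Skiv2l-deleted 2. Surrogate light chain genes, which pair with a new heavy chain, rose in 3 of 4 members, and 6 of 12 pro-B markers rose and 1 fell. These 2 counts of higher genes were both 0 without Skiv2l-deleted 1 or 3, 1 and 1 without control 1, and 2 and 2 without control 2 or Skiv2l-deleted 2. The lists share Igll1 and Vpreb1, and the pro-B markers Dntt and Rag1 were also counted under V(D)J recombination, so the counts are not separate results. The pro-B marker that fell was Cd79a, the gene of the Cre driver. It stood at 391.9 ± 42.5 FPKM in Skiv2l-deleted libraries and 701.6 ± 53.8 FPKM in controls (SD, n = 3 each), and the part of the driver in this was not tested. T cell genes (7 genes, 1 tested) summed to 21.6 to 38.1 FPKM in Skiv2l-deleted libraries and 28.1 to 29.2 FPKM in controls. NK cell genes (4 genes, 2 tested, 1 higher) summed to 13.7 to 43.4 FPKM in Skiv2l-deleted libraries and 5.13 to 18.3 FPKM in controls. Erythroid genes (4 genes, 2 tested, 0 called) summed to 2.26 to 110.5 FPKM in Skiv2l-deleted libraries and 2.67 to 4.23 FPKM in controls. Plasmacytoid dendritic genes (4 genes, 3 tested, 0 called) summed to 309.9 to 412.9 FPKM in Skiv2l-deleted libraries and 226.3 to 311.9 FPKM in controls. None of these markers was listed at 0 in all libraries. The part of these cells in the D and J values was not tested. With Skiv2l-deleted 2 and control 3 both left out, the log2 fold changes of the J segments were −1.15 to −1.44.

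Of all tested genes outside the 6 members, the pattern most like summed J FPKM over the 6 libraries was that of Pde7a, a cyclic AMP phosphodiesterase gene (Pearson r = 0.999), followed by E2f7 and Zbtb45 (0.998 each). Pde7a stood at 13.5, 12.8 and 14.5 FPKM in Skiv2l-deleted libraries and at 29.6, 27.6 and 21.8 FPKM in controls, again with control 3 the lowest control. For Ighd1-1 the most similar were Decr2 and Aig1 (r = 0.992 each) and the adhesion molecule gene Icam1 (0.988). For Ighd4-1 they were Tmx2 (0.987), Gm47154 (0.985) and B4gat1 (0.978). These correlations describe 6 libraries, take in the difference between the groups as well, and carry no test.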

How the data were processed

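Per the labels' protocols, messenger RNA of sorted pro-B cells from 3 Skiv2l-deleted and 3 control mice was sequenced from libraries that keep strand. The authors deposited 1 table per library with FPKM, TPM and coverage (mean read depth per base, a signal) for each gene, per the file headers. Per the submitters' processing notes, reads were placed on GRCm38. The sources used here do not state the aligner, the quantification tool or whether strand was used. The tables hold no read counts, so depth is given as coverage and no count model was used. Values of 7 to 9 identifiers per table that stood on several lines were summed.

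The test covered the 13539 genes that reached 1 FPKM in 3 or more of the 6 libraries. They were compared on log2(FPKM + 1) with limma 3.58.1 in R 4.3.3 (lmFit, eBayes with trend, genotype as the only term), with Benjamini-Hochberg adjustment over all tested genes and calls below 0.05. This scale understates changes of low segments. The limma step was checked on simulated libraries. Single values, sums and ratios were compared by exact two-sided permutation tests (SciPy 1.17.1). Named genes were the members, the other D segments, up to 6 called genes per list by lowest p (here those that bear on the text) and the 3 genes most similar to summed J, Ighd1-1 and Ighd4-1. The members, lists and tests were chosen with earlier results of these data known. Alternatives changed the pseudocount, filter, unit (TPM), scaling, trend, block or libraries.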

Additional observations from a re-analysis of the deposited data

How the results depend on the processing

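The direction of each member, of summed J FPKM and of the 3 within-library ratios was kept under each alternative that gave a value. Ighj2 was called under all 17, Ighd4-1 was not tested with a filter of 5 FPKM, and the cause of a lost call was not tested. Without a filter on low values, 28354 genes were tested and 512 were called (280 higher and 232 lower) against 1197 (673 and 524). The calls of Ighd1-1 (1.05), Ighj3 (−1.05) and Ighj4 (−1.23) were then lost (limma adjusted p = 0.113, 0.06 and 0.0727). With a replicate block 365 were called (185 higher and 180 lower) and Ighd1-1 (1.05) missed the threshold (0.065). The labels do not state that equal numbers pair mice. Same-numbered libraries deviated from their group means with correlations of 0.0939, −0.428 and −0.355, and no library pair of that kind correlated best with its own number. Libraries of unlike number reached 0.557 (Skiv2l-deleted 2 with control 3), 0.488 (Skiv2l-deleted 1 with control 2) and 0.413 (Skiv2l-deleted 3 with control 1). With 3 libraries in each group these correlations cannot decide whether libraries were paired. With Skiv2l-deleted 2 and control 3 both left out, 943 genes were higher and 740 lower, and Ighd1-1 (1.19, 0.0509) and Ighd4-1 (1.16, 0.0522) missed the threshold. When 1 library was left out, called genes ranged between 179 and 1749 (63 to 1020 higher, 113 to 729 lower), and log2 fold changes ranged between 0.85 and 1.20 for Ighd1-1, 0.36 and 1.13 for Ighd4-1, −1.48 and −1.22 for Ighj1, −1.21 and −0.89 for Ighj3, and −1.47 and −1.06 for Ighj4. Scaling by median ratios called 1222 genes (584 higher and 638 lower). The coverage of Ighd4-1 (0.818 to 8.55) limits what can be said of that segment.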
